A study of Mus musculus with 10 samples.

Results

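The genes described here encode the MLL/SET1 family of histone H3 lysine 4 (H3K4) methyltransferases and the WRAD core, the group of shared subunits named after WDR5, RBBP5, ASH2L and DPY30. They were chosen by gene symbol, from a list of 9: Mll1, Mll2, Mll3, Setd1a, Setd1b, Wdr5, Rbbp5, Ash2l and Dpy30. Of these, 8 had a row in both expression tables, out of 23235 genes per table, and Setd1b was not analysed here. All 8 had a mean of at least 1 FPKM (fragments per transcript length and sequencing depth) in both tables and were tested.

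The RNA came from mouse cortex. In utero electroporation at embryonic day 13 delivered either a Chd8 shRNA or a control shRNA to radial glial cells, the dividing progenitors of the cortical wall, and the transfected, GFP-positive cells were sorted at embryonic day 15. Each library pooled the cortices of 3 to 5 embryos. The Chd8 knockdown libraries of the new set (replicates 10, 11 and 12), made with one Chd8 shRNA (shRNA1), were set against 3 control shRNA libraries of the same set. The Chd8 knockdown libraries of the first set (replicates 1 and 2), made with another Chd8 shRNA (shRNA2), were set against 2 control shRNA libraries of that set. Strain and genotype of the embryos are not stated in the labels. Because shRNA, batch and table all differ between sets, their parts cannot be told apart, and levels were not compared across the tables.

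Methylation of H3K4 marks active promoters and enhancers. MLL and SET1 enzymes carry the catalytic SET domain but are weak alone: WDR5, RBBP5 and ASH2L hold the enzyme in an active shape, and DPY30 docks on ASH2L. In human cells CHD8, an ATP-dependent chromatin remodeler, has been found bound to WDR5, RBBP5 and ASH2L, which links the shRNA target to this complex. MLL1 and SET1 enzymes act mainly at promoters, and the enzymes encoded by Mll2 and Mll3 mainly place monomethylation at enhancers. The symbol Mll2 has been used for 2 mouse genes, Kmt2d and Kmt2b. Kmt2b has its own row in the tables under its older symbol Wbp7, so Mll2 is taken as Kmt2d. Mll1 is Kmt2a and Mll3 is Kmt2c in current nomenclature.

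Promoter windows are shown for the 4 members that were lower in the knockdown libraries of both sets combined, and also after the libraries were rescaled. Each runs from 250 bases before to 50 bases after the transcription start (RefSeq, build GRCm38.p6, whereas the submitters' processing notes name mm9 for the reads). RefSeq windows were matched for 7 members. Capitals mark matches, on either strand, to 5 motifs: the GC box GGGCGG, the ETS core CCGGAA, the CCAAT box CCAAT, the palindromic NRF1 motif and the E2F motif TTTCCCGC.
Mll1 (Kmt2a, chr9:44881240-44881539, minus strand): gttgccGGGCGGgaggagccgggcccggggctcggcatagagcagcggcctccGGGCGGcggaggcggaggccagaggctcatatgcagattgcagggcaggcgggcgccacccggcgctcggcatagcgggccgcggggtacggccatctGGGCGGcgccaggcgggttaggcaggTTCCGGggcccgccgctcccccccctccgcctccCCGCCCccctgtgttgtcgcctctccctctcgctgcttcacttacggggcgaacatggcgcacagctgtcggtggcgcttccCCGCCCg
Mll2 (Kmt2d, chr15:98871156-98871455, minus strand): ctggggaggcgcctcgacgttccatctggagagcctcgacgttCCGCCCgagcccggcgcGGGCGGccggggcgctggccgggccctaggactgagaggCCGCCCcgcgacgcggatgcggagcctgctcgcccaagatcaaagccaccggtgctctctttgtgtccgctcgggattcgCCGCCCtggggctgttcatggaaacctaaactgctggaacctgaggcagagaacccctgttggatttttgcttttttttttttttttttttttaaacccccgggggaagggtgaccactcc
Mll3 (Kmt2c, chr5:25498734-25499033, minus strand): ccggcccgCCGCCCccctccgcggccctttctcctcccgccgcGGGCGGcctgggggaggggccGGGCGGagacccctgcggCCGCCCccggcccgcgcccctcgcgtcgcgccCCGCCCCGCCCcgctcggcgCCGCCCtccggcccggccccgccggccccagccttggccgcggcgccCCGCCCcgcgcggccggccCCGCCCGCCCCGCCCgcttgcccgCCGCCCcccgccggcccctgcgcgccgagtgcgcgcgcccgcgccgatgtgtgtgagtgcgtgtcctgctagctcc
Rbbp5 (chr1:132477117-132477416, plus strand): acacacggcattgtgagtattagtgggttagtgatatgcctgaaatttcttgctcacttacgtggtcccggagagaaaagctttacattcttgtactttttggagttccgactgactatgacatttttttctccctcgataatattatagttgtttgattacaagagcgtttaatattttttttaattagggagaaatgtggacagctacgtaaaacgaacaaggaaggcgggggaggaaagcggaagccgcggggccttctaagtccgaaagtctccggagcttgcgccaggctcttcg
The windows differ in composition. The Mll3 window holds 56 CpG dinucleotides and 12 GC boxes, some of them overlapping. The Mll1 window holds 36 CpG, 5 GC boxes and 1 ETS core, and the Mll2 window 27 CpG and 4 GC boxes. The Rbbp5 window has 16 CpG and no match to the 5 motifs. A GC box is found in 35.7% of all 32851 windows in the table, an ETS core in 14.9%, a CCAAT box in 37.4%, the NRF1 motif in 0.971% and the E2F motif in 1.07%. The 4 genes therefore share no motif match in these windows. The matches describe the sequence and do not show that a factor binds there.

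The shRNA target was measured first. In the new set Chd8 was at 2.09, 1.84 and 1.92 FPKM in knockdown replicates 10, 11 and 12, against 3.59, 3.30 and 4.02 FPKM in control replicates 10, 11 and 12. In the first set it reached 8.55 and 9.23 FPKM in knockdown libraries, against 12.4 and 13.8 FPKM in the controls. Each knockdown library lay below each control of its set. The fall passed the test in the new set (log2 fold change −0.65, SE 0.117, limma adjusted p = 0.0213) but not in the first set (−0.51, SE 0.233, adjusted p = 0.152). With a correction for GC content and transcript length the first-set value was −0.22 (adjusted p = 0.451). The new-set call was lost without control replicate 10 or 12 or any 1 knockdown library (adjusted p from 0.053 to 0.0829). In the joined fit of both sets, described below, Chd8 was at −0.58 (SE 0.103, limma adjusted p = 0.00285). That call was kept in every alternative that tested it (adjusted p at most 0.0146).

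The libraries of the first set were unlike one another. Relative depth, read from the values that a single fragment gives, lay in the new set between 0.957 and 1.39, with new-set control replicate 10 as 1. In the first set, with first-set control replicate 1 as 1, it was 0.527 and 0.528 in the knockdown libraries and 1.22 in control replicate 2. Depth was not compared between the sets. The absolute depth is unknown. Olfactory receptor genes, which cortex does not use, had a mean of 1.39 FPKM in knockdown replicate 1 and 0.993 FPKM in knockdown replicate 2 of the first set, at most 0.0217 FPKM in the first-set controls, and at most 0.00554 FPKM in the new set. Marker genes were counted as lower or higher where the test called them. Of all tested genes 5.15% were called lower and 3.84% higher in the new set, and 10.7% lower and 13.2% higher in the first. Of the 9 radial glia markers 5 were lower and 0 higher in the new set, while 2 were lower and 0 higher in the first. Of the 5 intermediate progenitor markers 2 were lower in the new set, and 2 lower and 1 higher in the first. Of 8 markers of postmitotic neurons 3 were higher in the new set and 4 lower in the first. Among markers of other cells, 4 of 4 tested for GABAergic interneurons and 2 of 4 for erythroid cells were lower in the new set. The 1 choroid plexus marker tested there was not called. The 3 listed summed to 0.0437 to 44.1 FPKM over new-set knockdown libraries and 0.0659 to 0.175 FPKM in the controls. In the first set those sums were 4.72 to 7.86 FPKM in the knockdown libraries and 0.486 to 1.39 FPKM in the controls. For the first set, 2 of 4 tested for microglia and 1 of 1 for choroid plexus were higher. In its controls the listed microglia markers averaged 0.277 to 0.801 FPKM and those of choroid plexus 0.162 to 0.464 FPKM, under the 1 FPKM filter. Of the olfactory receptor genes tested in that set, 75 of 77 were called higher too. These calls therefore cannot tell such cells from that background. The summed level of the postmitotic neuron markers was 3209 to 3960 FPKM in the new-set knockdown libraries and 2281 to 2678 FPKM in the controls. For the first set it was 3030 to 3271 FPKM in the knockdown libraries and 4244 to 4857 FPKM in the controls. In bulk RNA of sorted cells, fewer cells of a type and less RNA per cell cannot be told apart, and the part of cell makeup in the results below was not tested.

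The order of the members by level was similar in every group apart from the place of Mll2. It was below Mll3 and Mll1 in the new set and above both in the first-set controls. Dpy30 had the highest FPKM, followed by Ash2l and Wdr5. In the new set Rbbp5, Mll3, Mll1, Mll2 and Setd1a came next in that order, and the ranges of neighbours overlapped only for Mll3 and Mll1 in the control libraries. In the first-set controls Wdr5 (14.98 and 16.7 FPKM), Rbbp5 (17.2 and 13.9 FPKM) and Mll2 (14.9 and 15.3 FPKM) could not be ordered, nor could Mll3 and Mll1. Among first-set knockdown libraries the members from Wdr5 down to Mll1 overlapped with their neighbours. FPKM are scaled by length, so the order is one of transcripts and not of fragments.

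**Figure D1:**
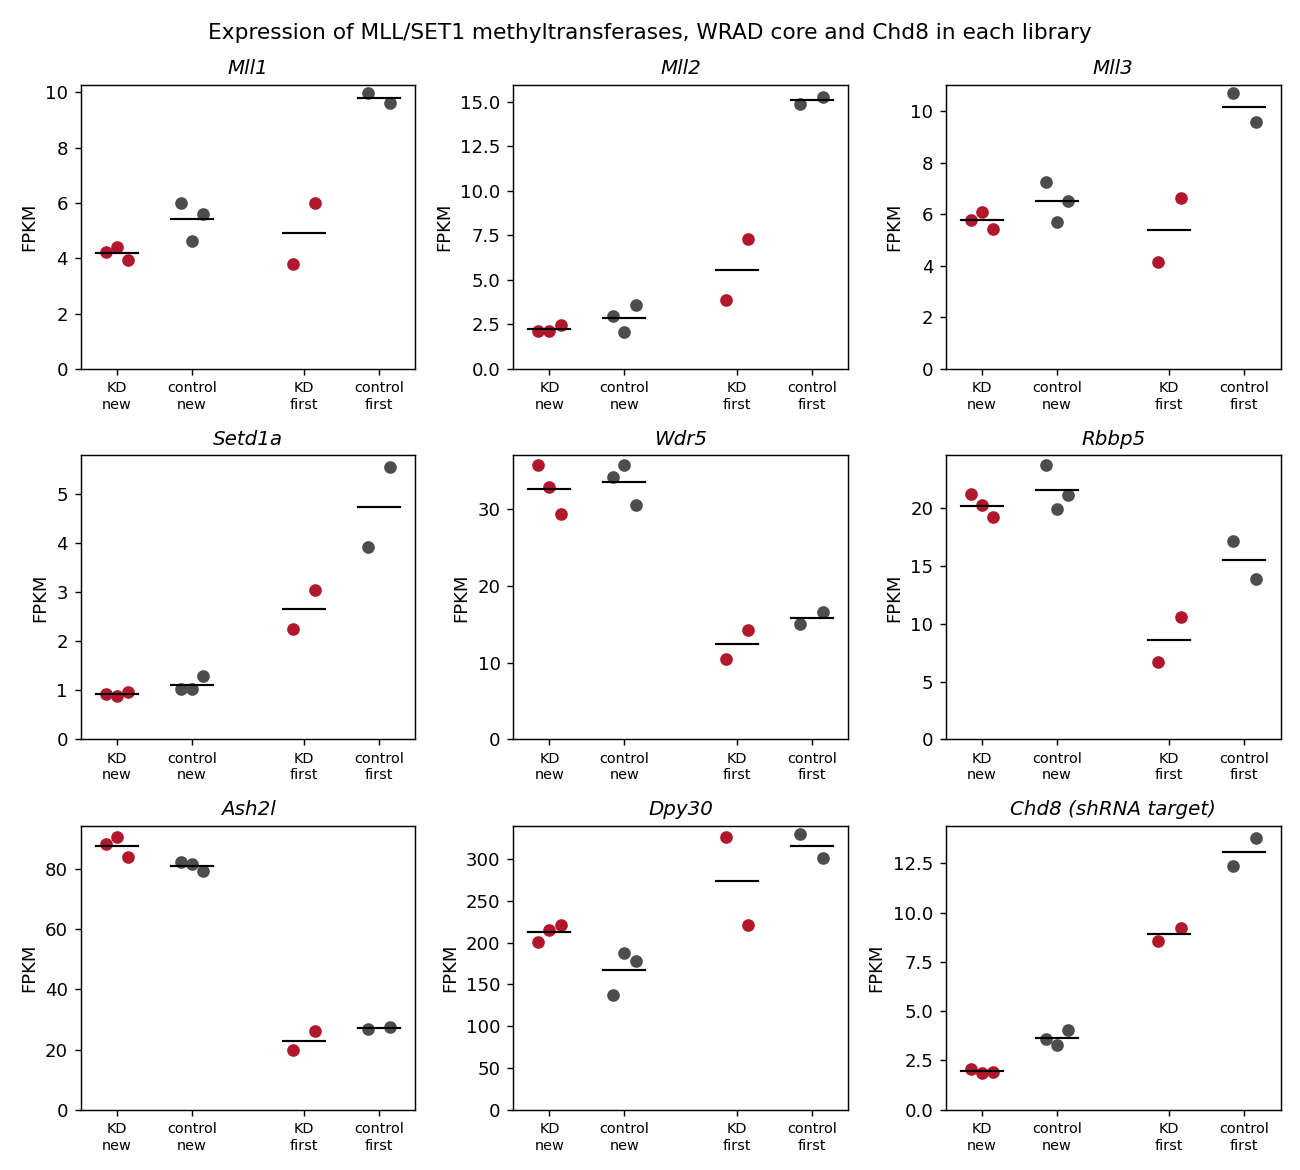
FPKM (vertical axis, linear from 0) of the 8 members and of Chd8 in each of the 10 libraries, with knockdown (KD, red) left of control (grey) for each set; black lines are group means. In the first set both knockdown points lie below both control points in every panel but Dpy30, and knockdown replicate 1 is below knockdown replicate 2 in every panel but Dpy30; the sets come from separate tables.

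The first comparison asked whether the enzymes changed with the Chd8 shRNA of the new set. All 4 methyltransferase genes had lower means in the knockdown libraries, at 77.4% to 88.7% of control, but no member passed the test. By limma 0 of 8 were called, against 8.99% of the 11291 genes tested (5.15% lower and 3.84% higher). An unadjusted p under 0.05 was found for 2 of 8, Mll1 and Dpy30, and for 30% of all tested genes.

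Mll1, the founding member of the family, was at 4.23, 4.42 and 3.93 FPKM in knockdown replicates 10, 11 and 12, against 5.996, 4.62 and 5.62 FPKM in control replicates 10, 11 and 12. The groups did not overlap, although control replicate 11 was close to the knockdown values. Its log2 fold change came to −0.30 (SE 0.123, limma adjusted p = 0.146). Mll2, whose product methylates enhancers, was at 2.15, 2.12 and 2.47 FPKM in knockdown libraries and at 2.94, 2.07 and 3.58 FPKM in the controls. Here control replicate 11 was the lowest of the 6 values and the groups overlapped (−0.23, SE 0.162, limma adjusted p = 0.359). Mll3, the close relative of Mll2, overlapped too, at 5.77, 6.08 and 5.44 FPKM in knockdown libraries and 7.26, 5.71 and 6.53 FPKM in the controls (−0.14, SE 0.117, limma adjusted p = 0.43). Setd1a, a catalytic subunit of the SET1 complexes, was near the filter, at 0.92, 0.889 and 0.956 FPKM in knockdown libraries and 1.02, 1.04 and 1.29 FPKM in the controls. Its groups did not overlap, and the log2 fold change, which adding 1 FPKM makes small at this level, was −0.14 (SE 0.118, limma adjusted p = 0.464).

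Of the 4 WRAD genes, 2 had a higher mean in the knockdown libraries (Dpy30 and Ash2l) and 2 a lower one (Wdr5 and Rbbp5), and no member of the core passed the test. Dpy30, the smallest subunit, was at 201, 215 and 221 FPKM in knockdown libraries and at 138, 187 and 178 FPKM in the controls, with no overlap. Its log2 fold change of 0.35 did not pass (SE 0.123, limma adjusted p = 0.104). With the replicate number as a block, which pairs knockdown and control libraries of the new set, Dpy30 was the only member that passed (SE 0.0838, adjusted p = 0.0361). The block raised the count of all genes called from 1015 to 2452. Without the block, leaving out control replicate 10 gave 0.22 (adjusted p = 0.205), leaving out control replicate 11 gave 0.44 (0.0446), and leaving out any other library of the set gave adjusted p from 0.158 to 0.264. Ash2l, which with RBBP5 activates the enzymes, was at 88.4, 90.8 and 83.9 FPKM in knockdown libraries and 82.3, 81.7 and 79.3 FPKM in the controls, so that its mean was 108% of control (0.11, SE 0.073, limma adjusted p = 0.335). Wdr5, the WD40 protein that holds the enzyme's Win motif, was at 35.8, 32.9 and 29.5 FPKM in knockdown libraries and 34.3, 35.8 and 30.6 FPKM in the controls, with ranges that nearly coincided (−0.04, SE 0.101, limma adjusted p = 0.835). Rbbp5 was at 21.2, 20.3 and 19.2 FPKM in knockdown libraries and 23.7, 20.0 and 21.1 FPKM in the controls (−0.09, SE 0.0948, limma adjusted p = 0.561). Groups did not overlap for 2 lower and 2 higher members, and for 17.1% (lower) and 18.6% (higher) of all tested genes.

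The second comparison put the question to the other Chd8 shRNA. Both knockdown libraries of the first set lay below both controls for 7 of 8 members and for 40.4% of the 12461 genes tested. The fall was largest in Mll2, the only 1 of 8 called (10.7% of all tested genes were called lower, 13.2% higher and 23.8% in all). An unadjusted p under 0.05 was found for 4 of 8 members and 39.2% of all tested genes. Mll1, Mll3, Setd1a and Rbbp5 were at 50.1% to 55.9% of control, and Wdr5, Ash2l and Dpy30 at 78.2% to 86.8%.

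Mll2 was at 3.84 and 7.28 FPKM in knockdown replicates 1 and 2, against 14.9 and 15.3 FPKM in control replicates 1 and 2. The controls lay close together and the knockdown libraries differed from each other by more. Its log2 fold change came to −1.34 (SE 0.31, limma adjusted p = 0.023), and 1.59% of tested genes had a lower one. The call was lost without knockdown replicate 1 (−0.96, adjusted p = 0.125), without control replicate 1 (−1.36, 0.0982) or 2 (−1.33, 0.102), and with no filter on low values (−1.34, 0.0736).

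Mll1 was at 3.79 and 6.01 FPKM in knockdown libraries and 9.96 and 9.61 FPKM in the controls (−0.90, SE 0.279, limma adjusted p = 0.0562). Mll3 was at 4.15 and 6.63 FPKM in knockdown libraries and 10.7 and 9.60 FPKM in the controls (−0.83, SE 0.283, limma adjusted p = 0.0725). Rbbp5 was at 6.67 and 10.6 FPKM in knockdown libraries and 17.2 and 13.9 FPKM in the controls (−0.80, SE 0.286, limma adjusted p = 0.081). In these 3 genes knockdown replicate 1 was the lowest library and neither group overlapped the other. Without that library the values were −0.62 for Mll1, −0.55 for Mll3 and −0.50 for Rbbp5 (adjusted p from 0.228 to 0.308). Setd1a was at 2.26 and 3.05 FPKM in knockdown libraries and 3.94 and 5.56 FPKM in the controls (−0.65, SE 0.278, limma adjusted p = 0.131).

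Wdr5 was at 10.4 and 14.3 FPKM in knockdown libraries and 14.98 and 16.7 FPKM in the controls (−0.35, SE 0.25, limma adjusted p = 0.336). Ash2l was at 19.8 and 26.2 FPKM in knockdown libraries and 27.0 and 27.5 FPKM in the controls (−0.25, SE 0.229, limma adjusted p = 0.449). In both genes knockdown replicate 2 was close to the nearest control. Dpy30 was at 327 and 221 FPKM in knockdown libraries and 330.1 and 302 FPKM in the controls, the only member whose groups overlapped and the only one that was higher in knockdown replicate 1 than in replicate 2 (−0.23, SE 0.244, limma adjusted p = 0.514).

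All tested genes had a median log2 fold change of −0.15 in the first set, which median-of-ratios scaling shifted to 0.009. Of all genes called in the first set 55.2% were higher, and 74.4% after that scaling (31.3% and 46.6% in the joined fit below). After rescaling the 8 members still ranged from −1.19 (Mll2, limma adjusted p = 0.0335) to −0.05 (Dpy30, adjusted p = 0.901). Subtracting from each library the mean FPKM of its olfactory receptor genes gave −1.25 for Mll1 (limma adjusted p = 0.0426), −1.68 for Mll2 (0.027) and −1.25 for Setd1a (0.0481), all 3 then called. That subtraction also moved the median of all tested genes to −0.41. It left 2846 of 11342 genes called, 30.6% of them higher. Without subtraction Setd1a had −0.65.

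**Figure D2:**
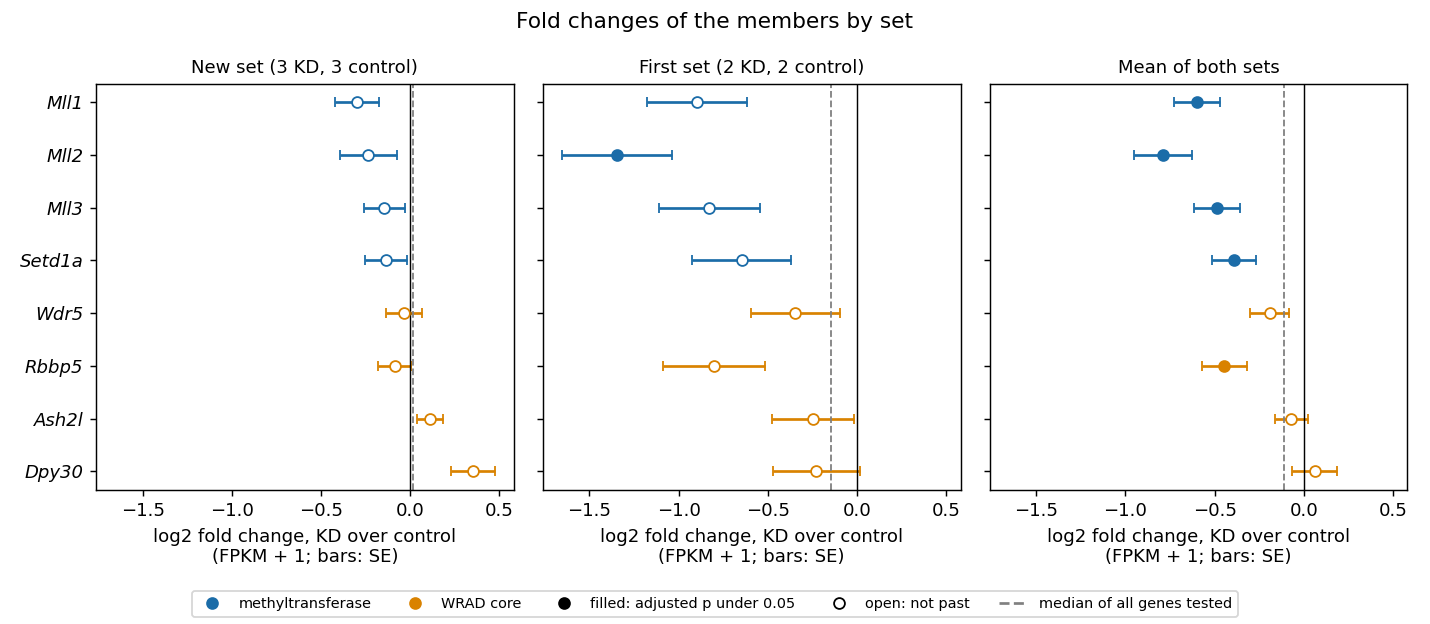
Log2 fold change (horizontal axis, knockdown over control, FPKM + 1, bars ± SE) of each member in the new set, the first set and as the mean of both; filled points passed an adjusted p of 0.05 and the dashed line is the median of all genes tested. The 4 methyltransferases lie below 0 in every panel, from −0.30 to −0.14 for the new set and from −1.34 to −0.65 for the first.

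Both sets were then joined in 1 fit, with 1 fold change per set and their mean as the contrast. The 4 methyltransferases and Rbbp5 fell, 5 of 8 members, where 20.5% of the 10827 genes tested were called lower, 9.37% higher and 29.9% in all. An unadjusted p under 0.05 was found for the same number of members and for 42.8% of all tested genes. Mll2 fell by 0.79 on the log2 scale (SE 0.164, limma adjusted p = 0.00556), Mll1 by 0.60 (SE 0.129, adjusted p = 0.0065), Mll3 by 0.49 (SE 0.129, adjusted p = 0.0166), Rbbp5 by 0.45 (SE 0.127, adjusted p = 0.0223) and Setd1a by 0.39 (SE 0.124, adjusted p = 0.0344). Wdr5 (−0.19, adjusted p = 0.204), Ash2l (−0.07, 0.589) and Dpy30 (0.06, 0.739) did not pass. The median was −0.54 over the methyltransferases and −0.13 over the WRAD genes, against −0.11 over all tested genes. Mll1 and Setd1a were the 2 members lower without overlap in both sets, as were 7.6% of all genes. All 8 members had a more negative fold change in the first set than in the new set, and over all genes tested the median of that difference (new minus first) was 0.23, with 36.6% of genes below 0.

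The calls of Mll1 and Mll2 were kept in every alternative that tested them. That of Mll3 was lost without first-set control replicate 1 (limma adjusted p = 0.0506). Rbbp5 lost its call without new-set control replicate 10 or knockdown replicate 12, or without first-set knockdown or control replicate 1 (adjusted p from 0.0503 to 0.0754). Setd1a lost it after rescaling (0.0726), with a pseudocount of 0.1 FPKM (0.0554), without any 1 of the new-set knockdown libraries or control replicate 10 (0.0586 to 0.0698), and without first-set knockdown replicate 1 (0.103) or control replicate 2 (0.117). Wdr5 passed without first-set knockdown replicate 2 (−0.30, adjusted p = 0.0417).

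The difference between the sets was tested in the same fit. Mll2 and Rbbp5 passed, 2 of 8 members, where 22.5% of all genes were called in that direction, 9.98% in the other and 32.5% in all. Of those calls 69.3% were in that direction, and 51.7% after rescaling. For 5 of 8 members and 43.9% of all genes the unadjusted p was under 0.05. The new-set fold change minus that of the first set was 1.11 for Mll2 (SE 0.327, limma adjusted p = 0.0243) and 0.72 for Rbbp5 (SE 0.253, adjusted p = 0.0495). For the other 6 it was between 0.31 and 0.68 and did not pass (adjusted p from 0.062 to 0.297). Neither call held after rescaling (adjusted p = 0.0508 for Mll2 and 0.124 for Rbbp5). The call of Mll2 was also lost without new-set knockdown replicate 12 (0.0518), first-set knockdown replicate 1 (0.72, adjusted p = 0.0789), or first-set control replicate 1 (0.0562) or 2 (0.0623). That of Rbbp5 was lost in 13 of 20 alternatives (adjusted p from 0.0537 to 0.163), without first-set knockdown replicate 1 at 0.42 (0.163) and with the replicate block (0.0719), where Dpy30 passed (0.58, adjusted p = 0.0483).

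A ratio within a library does not depend on how that library was scaled. It can still carry a trend with transcript length, and it was not computed with the GC and length correction described below. The summed FPKM of the 4 WRAD genes was 26.5, 26.6 and 27.6 times that of the 4 methyltransferase genes in new-set knockdown replicates 10, 11 and 12, and 16.2, 24.2 and 18.2 times in control replicates 10, 11 and 12. For the first set it was 25.9 and 11.9 times in knockdown replicates 1 and 2, and 9.86 and 8.98 times in control replicates 1 and 2. The ratio was higher in each knockdown library than in each control of its set. On the log2 scale the difference was 0.49 (pooled SD 0.212) for the new set and 0.90 (pooled SD 0.568) for the first. With background subtraction the first-set difference was 1.37 (pooled SD 0.794). Dpy30 makes up most of the sum; without it the differences were 0.31 and 0.71, again with no overlap. Taking medians of the log2 values in place of sums let the new-set groups overlap (0.38, pooled SD 0.257). The ratio was chosen with the members' values known and was not tested.

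**Figure D3:**
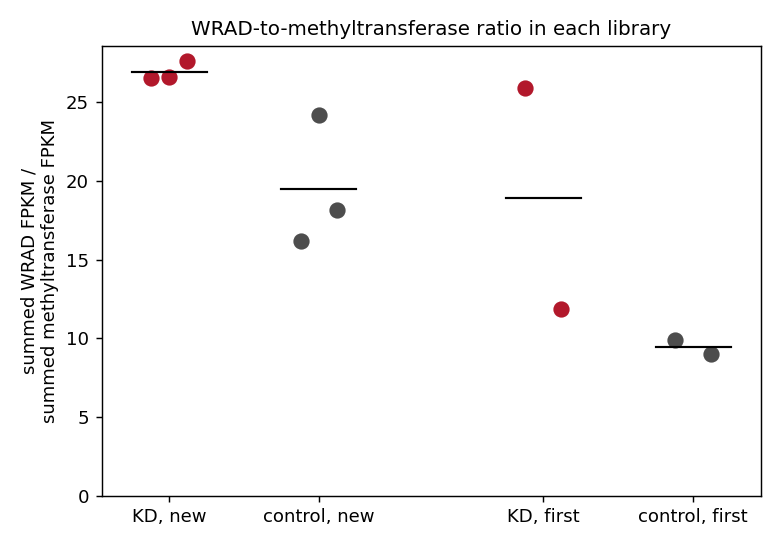
Summed FPKM of Wdr5, Rbbp5, Ash2l and Dpy30 divided by that of Mll1, Mll2, Mll3 and Setd1a (vertical axis, linear from 0) in each library, with knockdown (KD, red) left of control (grey) in each set; black lines are group means. New-set knockdown libraries sit between 26.5 and 27.6, above the controls at 16.2 to 24.2, and first-set knockdown replicate 1 (25.9) is far from replicate 2 (11.9).

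The 2 kinds of gene differ in length. The longest transcripts annotated (GENCODE) are 16470, 19823 and 14967 bases for Mll1, Mll2 and Mll3 and 6487 for Setd1a, against 2890 for Wdr5, 3385 for Rbbp5, 3307 for Ash2l and 789 for Dpy30. Over all genes of the first set the median log2 fold change ran with length: 0.16 for the 3382 genes of up to 2000 bases, −0.18 for 4859 genes of 2000 to 4000, −0.35 for 3412 genes of 4000 to 8000, −0.36 for 527 genes of 8000 to 12000 and −0.35 for 118 longer genes. In the new set the same classes lay between −0.02 and 0.07. Within its class each member was below the median in the first set, by the most in Mll2. With a per-library trend on length and GC content removed, the first-set values were −0.64 for Mll1, −1.25 for Mll2, −0.54 for Mll3 and −0.60 for Setd1a, and Mll2 stayed called (limma adjusted p = 0.0206). That correction moved Dpy30 most, to −0.93 in the first set (adjusted p = 0.0158) and to −0.29 in the joined fit (0.0302), where it turned the direction. In the new set the corrected Dpy30 value was 0.345, called higher (limma adjusted p = 0.0383). Its joined value is thus the mean of opposite changes.

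**Figure D4:**
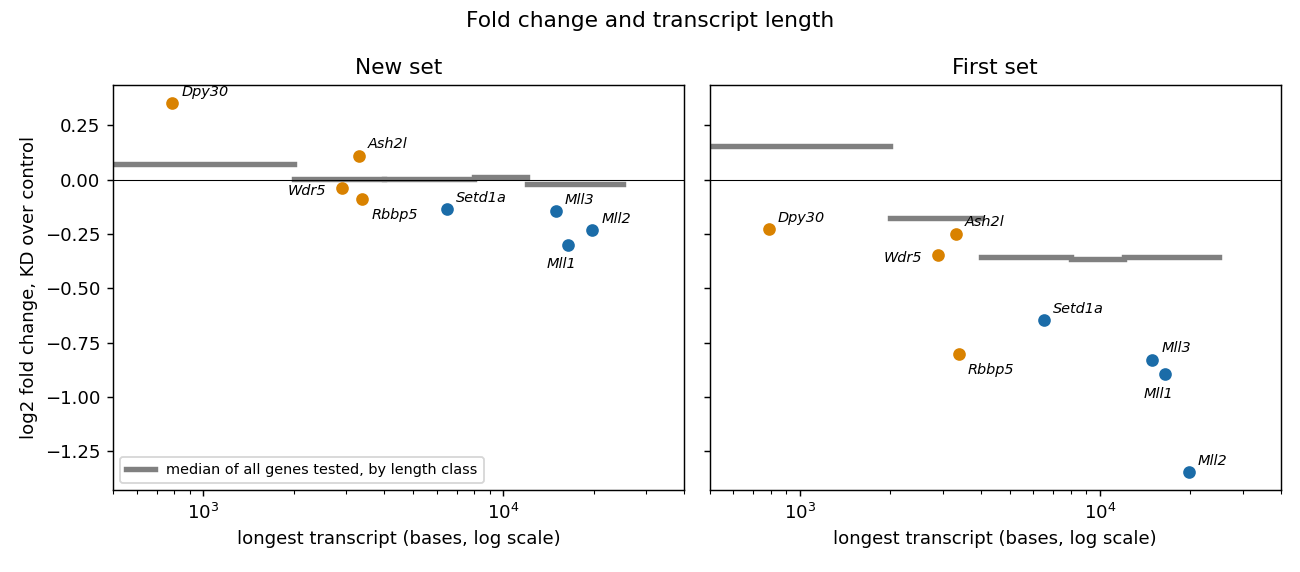
Log2 fold change (vertical axis, knockdown over control) against the length of the longest annotated transcript (horizontal axis, bases, log scale) for the members, methyltransferases in blue and WRAD genes in orange, in the new set (left) and the first set (right); grey bars are medians of all genes tested by length class. In the first set the bars fall from 0.16 to about −0.35 and the 4 methyltransferases lie below them.

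Members that moved alike over the libraries were found by the root mean square difference of their log2 values, each centred on its table's mean, over 10 libraries. Among 7438 candidate genes averaging 5 FPKM or more in both tables, the gene nearest to Mll1 was Mll3 (0.0694), the nearest to Mll3 was Rbbp5 (0.0534) and the nearest to Rbbp5 was Mll3. Mll1, Mll2 and Setd1a averaged under that level in the new set and were no candidates. The second nearest were Zfp160 (0.0763) for Mll1, Ikzf5 (0.0626) for Mll3 and Zfr (0.054) for Rbbp5. Mll2 was nearest to Rbpj (0.108) and Tlk1 (0.111), Setd1a to Ezh2 (0.0738) and Zfand6 (0.0781), Wdr5 to Fxr1 (0.0589) and Aldh9a1 (0.0615), Ash2l to Rcbtb2 (0.043) and Fads1 (0.0476), and Dpy30 to Ndufs8 (0.0554) and Mrpl34 (0.0567). These distances describe the 10 libraries, which share the shift of the first set.

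Other genes of the H3K4 system were taken from 4 lists. Of 24 tested genes for further subunits and partners of the MLL/SET1 complexes, 7 fell and 3 rose in the joined fit (median −0.19), 1 fell in the new set, and 5 fell and 2 rose in the first. Of all genes tested 20.5% fell and 9.37% rose in the joined fit, 5.15% fell in the new set, and 10.7% fell and 13.2% rose in the first. Psip1, whose product LEDGF tethers MLL1 to chromatin, was at 168, 161 and 170.3 FPKM in the new-set knockdown libraries and 169.5, 183 and 178 FPKM in the controls, and at 25.1 and 30.7 FPKM in the first-set knockdown libraries and 49.97 and 57.4 FPKM in the controls (joined −0.51, SE 0.0876, limma adjusted p = 0.00248). Its groups separated in the first set alone. Max, the dimerization partner of MYC, fell by 0.75 in the joined fit (limma adjusted p = 0.0148), Phf20 by 0.43 (0.00475), E2f6 by 0.45 (0.0205) and Akap8 by 0.66 (0.00359), and Hcfc1 and Ncoa6 were the other 2 that fell. Apart from Akap8 (−0.50 in the new set), the new-set values were small, −0.03 for Max, 0.08 for Phf20 and −0.04 for E2f6, against −1.48, −0.93 and −0.85 for the first set. Ring1 rose by 0.75 (0.00352; 0.06 for the new set, 1.43 for the first) and Mcrs1 by 0.31 (0.0282). Akap8l, whose product is a nuclear scaffold protein, changed in opposite directions in the sets. It was at 22.9 ± 0.886 FPKM in new-set knockdown libraries and 33.9 ± 2.19 FPKM in the controls (SD, n = 3 each; −0.55, limma adjusted p = 0.0167), and at 46.4 ± 10.3 FPKM in first-set knockdown libraries and 16.4 ± 4.30 FPKM in the controls (SD, n = 2 each; 1.46, limma adjusted p = 0.0107). The joined value of 0.45 (0.0178) is the mean of these opposite changes.

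Of 8 tested genes with other H3K4 methyltransferase activity or homology, 1 fell and 1 rose in the joined fit (median −0.09), and 0 were called in the new set or, of 9 tested there, in the first. Setd3 fell by 0.31 (limma adjusted p = 0.0438), with −0.01 for the new set and −0.60 for the first, and Smyd2 rose by 0.34 (0.0495). Wbp7, the gene for MLL1's closest relative, had a joined value of −0.19 (0.287), and Ash1l of −0.31 (0.0578). Of 12 demethylase genes and partners, 3 fell and 1 rose (median −0.20), with 0 called in the new set and 1 each way in the first. Kdm5a, an H3K4 demethylase, was at 10.9 ± 0.817 FPKM in new-set knockdown libraries and 12.3 ± 1.10 FPKM in the controls, and at 23.8 ± 4.36 FPKM in first-set knockdown libraries and 37.2 ± 6.80 FPKM in the controls (SD, n = 3 each and 2 each; joined −0.39, limma adjusted p = 0.0254). Kdm1b (−0.39, 0.0151), a relative of LSD1, and Phf21a (−0.36, 0.0171), an LSD1 partner that reads unmethylated H3K4, also fell in the joined fit. Kdm1b had opposite signs in the sets, at 0.13 for the new set (adjusted p = 0.382) and −0.91 for the first (0.0405). Hmg20b, another LSD1 partner, rose in the joined fit (0.60, 0.00656), again from opposite signs. It was at 9.53 ± 1.43 FPKM in new-set knockdown libraries and 11.6 ± 1.70 FPKM in the controls (SD, n = 3 each; −0.26, limma adjusted p = 0.25), and at 13.4 ± 0.832 FPKM in first-set knockdown libraries and 4.30 ± 1.10 FPKM in the controls (SD, n = 2 each; 1.46, limma adjusted p = 0.00961).

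Of 20 reader genes, whose products bind methylated H3K4, 6 fell and 0 rose in the joined fit (median −0.20), 2 fell and 1 rose in the new set, and 0 were called in the first. The joined count stands beside the 20.5% of all genes that fell. Bptf, the largest subunit of the NURF remodeler, was at 2.17, 2.19 and 2.78 FPKM in the new-set knockdown libraries and 3.57, 4.2 and 4.01 FPKM in the controls, and at 8.51 and 8.74 FPKM in the first-set knockdown libraries and 13.6 and 14.4 FPKM in the controls. It was lower without overlap in both sets and passed in the new set (−0.55, SE 0.125, limma adjusted p = 0.0377) and in the joined fit (−0.59, adjusted p = 0.0028). Phf23 did likewise (new set −0.40, limma adjusted p = 0.0437, and joined −0.45, 0.00449). Chd1, a remodeler that binds trimethylated H3K4, fell by 0.47 in the joined fit (0.00662; −0.11 for the new set, −0.83 for the first), Phf13 by 0.65 (0.00921), Ing1 by 0.39 (0.0132) and Ing4 by 0.26 (0.0369).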

How the data were processed

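RNA was measured by sequencing in 10 libraries of sorted cortical cells. Per the labels' protocols, the extraction used the RNeasy Plus kit and the library preparation a low-input kit from Clontech. Tools named in the submitters' processing notes are TopHat2, Bowtie, Cufflinks 2.0.0 and Cuffdiff, and the build is mm9. The annotation, read filters and strand setting stand in none of the sources used here, so overlapping genes cannot be told apart. The authors deposited FPKM values, 1 column per library, in 2 separately made tables. No counts were used, so the depth behind each value is unknown. FPKM of low genes gave relative depth only.

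Values were taken as log2(FPKM + 1), which understates changes of low genes. Genes averaging 1 FPKM or more in a table were fitted with limma 3.58.1 in R 4.3.3 (eBayes with trend, two-sided), by set and joined, with Benjamini-Hochberg adjustment over all genes tested and a threshold of 0.05. Residual degrees of freedom were 4, 2 and 6 in the new set, the first set and the joined fit. The fit was tested on simulated data. P-values measure the spread between pools of embryos, with each gene's variance moderated toward that of other genes of similar level. The joined fit used 1 variance per gene for both sets. In the separate fits the SEs of the members were larger in the first set, as for Rbbp5 (0.286 against 0.0948).

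The members and lists were chosen with earlier results of these data known. Named genes were Chd8, the members, the 2 nearest genes of each member, and from each list up to 4 with the smallest joined p plus those called in the joined fit, up to 8. In the new set, libraries with the same replicate number deviated together across genes (correlations 0.122, 0.242 and 0.193 for numbers 10, 11 and 12), so the block was treated as a pairing. In the first set the correlation was −0.0285 for the same number and 0.0285 for the other number. With 2 libraries a group these values mirror each other, so they cannot show whether the first set was paired. Alternatives changed the pseudocount, filter, scaling, trend, block, background and libraries used. A GC and length correction, a background without olfactory pseudogenes and a ratio without Dpy30 were added after seeing the data. Lengths and GC came from GENCODE vM21 for 98% of genes, matched by current or older symbol.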

Additional observations from a re-analysis of the deposited data

Results flagged for a closer look

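The difference between sets, as the new-set minus the first-set log2 fold change, passed the test for 2 members, Mll2 (1.11, limma adjusted p = 0.0243) and Rbbp5 (0.72, adjusted p = 0.0495). Among the other named genes of the H3K4 system it passed in the same direction for Max (1.45), Kdm1b (1.03), Phf20 (1.004), Psip1 (0.84), E2f6 (0.81), Chd1 (0.73), Ing1 (0.62) and Setd3 (0.60). It passed in the opposite direction for Akap8l (−2.003), Hmg20b (−1.71) and Ring1 (−1.37). The sets differ in shRNA, batch and table, which cannot be told apart.

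Olfactory receptor genes, outside the main measurement, had a mean of 1.39 FPKM in knockdown replicate 1 and 0.993 FPKM in knockdown replicate 2 of the first set, against 0.0181 and 0.0217 FPKM in first-set control replicates 1 and 2. Without the 22 pseudogenes among them the means were 0.672 and 0.557 FPKM in the knockdown libraries and 0.0036 and 0.00817 FPKM in the controls. Mll2, Mll1, Mll3, Setd1a and Rbbp5 were lower in those 2 knockdown libraries. With the mean of all olfactory receptor genes subtracted, their first-set log2 fold changes ran from −1.68 (Mll2) to −1.01 (Rbbp5). Beyond the refits with such subtraction, the part of this signal in their values was not tested.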

How the results depend on the processing

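Counts of genes called moved by over 1.5 times in these settings. In the new set, 1015 genes became 470 with no filter on low values, 2452 with the replicate block, 1970 with the GC and length correction and 3232 with both; leaving out 1 library gave 88 to 1883. In the first set, 2971 became 1602 with a minimum mean of 5 FPKM and 713 to 1247 without 1 library. With no filter the joined fit called 5917 genes in place of 3238, and the difference between sets 6345 in place of 3520. Members called in the new set went from 0 to 1 with the block, the correction or both, and were 0 to 1 without 1 library. In the first set 1 became 0 with no filter, 3 with background subtraction, 2 without olfactory pseudogenes in it, and 2 with the correction, with or without the block; leaving out 1 library gave 0 to 1. In the joined fit 5 became 2 with the 5 FPKM minimum, at which 3 of the methyltransferases were not tested, and 3 to 6 without 1 library. For the difference 2 became 1 with that minimum, 0 after rescaling, 1 without a trend, 5 with background subtraction and 4 without olfactory pseudogenes, and 0 to 5 without 1 library. Of all genes, background subtraction gave 4205 of 10390 called for the difference, 83.4% of them in the members' direction. Without olfactory pseudogenes these were 3830 of 10592 and 78.1%, against 3520 of 10827 and 69.3% in the main fit. In the first set those 2 backgrounds gave 2846 of 11342 and 2856 of 11804 genes called. The causes were not tested. Joined Ash2l (−0.07) was 0.0089 after rescaling, 0.0055 with the correction, with or without the block, and ranged from −0.17 to 0.028 without 1 library. Joined Dpy30 (0.06) was −0.29 with the correction (called, adjusted p = 0.0302, and 0.0168 with the block) and −0.079 to 0.20 without 1 library (−0.0061 without new-set control replicate 10). Dpy30 in the first set (−0.23) was −0.51 to 0.052 without 1 library (above 0 without knockdown replicate 2). Wdr5 in the new set (−0.04) was −0.10 to 0.035 without 1 library (above 0 without control replicate 11 or knockdown replicate 12), and the difference for Chd8 (−0.14) was 0.042 with background subtraction. The replicate block changed no call of a member other than those given for Dpy30 and Rbbp5. With 2 libraries a group and no known depth, the first set limits what can be detected. Setd1a fell under the filter without new-set control replicate 12.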
